A study of Mus musculus with 2 samples.

Results

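MicroRNAs miR-128 and miR-218 are each encoded by a pair of genes, and the 4 genes Mir128-1, Mir128-2, Mir218-1 and Mir218-2 were followed here among the 2202 miRNA genes counted in hippocampal small RNA libraries. The members were chosen by gene symbol in the GENCODE M21 annotation, and all 4 were matched by identifier to the count tables. The RNA, of under 30 nt, was from hippocampal tissue of females of the strain labelled 5xFAD/CAST, adults between 8 and 10 months old. As background, 5xFAD transgenes express mutant human amyloid precursor protein and presenilin from a neuronal Thy1 promoter, and CAST names a strain derived from wild Mus musculus castaneus. There was 1 group, with 2 biological replicates that share an entry for the donor, and no second genotype, so the stated strain, age and sex were the same in both. The labels name the tissue as a layer of hippocampus without saying which layer. Whether the replicates came from separate animals is not spelled out, so no p-value can be read as covering the spread between animals. Those for copies rest on the spread between these 2 samples, shared over families of gene copies. Those between libraries rest on counting error only.

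A miRNA is cut as a short duplex from a hairpin in a longer transcript. One strand of the duplex is usually kept and guides silencing through its seed, bases 2 to 8 from the 5′ end, which pairs with target messages. miR-128 is a brain-enriched miRNA that restrains neuronal excitability in mice. miR-218 is known from hindbrain and spinal motor neurons and is also expressed in hippocampal neurons. Its targets include messages for Robo receptors, which bind the Slit proteins encoded by its own host genes.

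The hairpin sequences show what the copies have in common, since reads that lie wholly within a shared stretch cannot be assigned to either copy. In each line below the capitals mark the mature strand that both copies of the pair encode. The sequences are from RefSeq on GRCm38.p6, and the coordinates of all 4 hairpins were the same as those of the M21 genes.

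Mir128-1: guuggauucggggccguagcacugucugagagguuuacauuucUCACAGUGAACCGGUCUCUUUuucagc
Mir128-2: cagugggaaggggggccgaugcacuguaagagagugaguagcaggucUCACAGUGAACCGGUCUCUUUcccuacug
Mir218-1: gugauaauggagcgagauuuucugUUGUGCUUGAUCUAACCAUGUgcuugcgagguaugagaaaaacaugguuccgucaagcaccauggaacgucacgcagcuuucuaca
Mir218-2: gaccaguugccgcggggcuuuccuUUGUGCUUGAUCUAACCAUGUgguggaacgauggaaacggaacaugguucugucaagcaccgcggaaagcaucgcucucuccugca

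The mature strands from these hairpins are given with the seed in capitals. They show that the other arm of each duplex, unlike the shared one, differs in sequence between the copies.

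miR-128-3p, from Mir128-1 and Mir128-2: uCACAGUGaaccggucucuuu
miR-128-1-5p, from Mir128-1: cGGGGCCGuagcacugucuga
miR-128-2-5p, from Mir128-2: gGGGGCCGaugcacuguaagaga
miR-218-5p, from Mir218-1 and Mir218-2: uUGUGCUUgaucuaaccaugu
miR-218-1-3p, from Mir218-1: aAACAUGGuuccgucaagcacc
miR-218-2-3p, from Mir218-2: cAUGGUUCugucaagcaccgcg

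In the miR-128 pair the shared strand lies on the 3′ arm, and in the miR-218 pair it lies on the 5′ arm. The Mir128-1 and Mir128-2 hairpins share a longest run of 23 bases, from base 42 to 64 of Mir128-1 and from base 46 to 68 of Mir128-2. That run ends at the last base of miR-128-3p and starts upstream of it. The Mir218-1 and Mir218-2 hairpins share a longest run of 22 bases, from base 25 to 46 in both, which starts at the first base of miR-218-5p and ends just past it. Of the 18-base windows in each hairpin, 47 of 53 in Mir128-1 and 53 of 59 in Mir128-2 were absent from the other copy. For Mir218-1 and Mir218-2 it was 88 of 93 windows in each. Among the 1004 other RefSeq hairpins, none but the partner copy shared any 18-base window with a member.

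The arms that differ do so in different ways in the pairs. miR-128-1-5p and miR-128-2-5p share at most 7 bases in a row, at bases 2 to 8 of both and again at bases 11 to 17 of both, and the first of these runs is the seed. miR-218-1-3p and miR-218-2-3p share a longest run of 10 bases, but it starts at base 13 of miR-218-1-3p and at base 10 of miR-218-2-3p, and their seeds differ. In the RefSeq table of 1679 mature names, the seed of miR-128-3p occurred in miR-128-3p alone. The seed of miR-218-5p also occurred in miR-7002-3p, and that of miR-218-1-3p in miR-496b. The counts are per gene and do not separate the arms, so no value below is for a single arm. How far reads of the shared strands entered these counts is not stated.

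**Figure D1:**
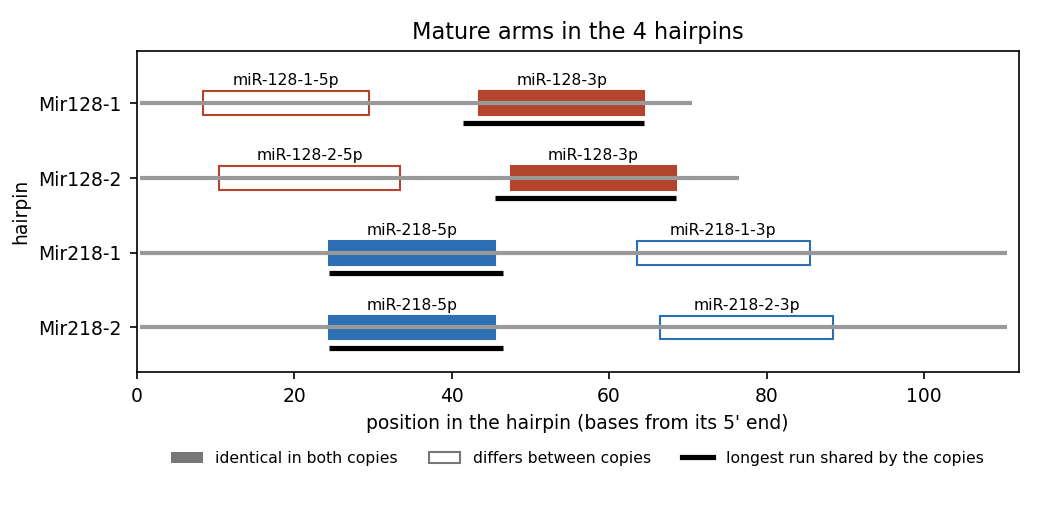
Mature arms in the 4 hairpins, drawn to scale. The x axis is the position in bases from the 5′ end of each hairpin, filled boxes are arms identical in both copies, open boxes are arms that differ, and black bars are the longest run shared by the copies (23 bases for miR-128 and 22 for miR-218).

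Each member lies in an intron of a protein-coding gene on the same strand, in all annotated host transcripts that span it. Positions are given for mm10, and exons are counted in the host transcript with the most exons. Mir128-1 (ENSMUSG00000065520.2) lies on the plus strand at chr1:128202361-128202430, in intron 19 of R3hdm1, which encodes a protein with an RNA-binding R3H domain. That intron is 14107 bases long, and the hairpin starts 5263 bases after the upstream exon. Mir128-2 (ENSMUSG00000065441.2) lies on the minus strand at chr9:112118636-112118711, in intron 19 of Arpp21, which encodes a cyclic AMP-regulated phosphoprotein of neurons that also holds an R3H domain. This intron spans 51873 bases, and the hairpin lies 471 bases after the upstream exon.

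Mir218-1 (ENSMUSG00000065603.1) lies on the plus strand at chr5:48223942-48224051, in intron 16 of Slit2, a secreted axon guidance protein. The intron is 3662 bases long, with 601 bases between the hairpin and the downstream exon. Mir218-2 (ENSMUSG00000065583.1) lies on the plus strand at chr11:35616816-35616925, in intron 14 of Slit3, a paralog of Slit2, and this intron is 9571 bases long. The hairpins of Mir128-1 and Mir128-2 lay 99.1 kb and 117 kb from the 5′ end of their hosts, and those of Mir218-1 and Mir218-2 lay 241 kb and 496 kb from it. No gene was annotated on the strand opposite to any member, and no other miRNA gene lay within 10000 bases. Messages of the host genes were not measured in these libraries.

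Replicate 1 held 9962659 reads and replicate 2 held 12761689, of which 3135960 and 4377622 were assigned to miRNA genes in the sense direction. Multimapping reads made up 36.3% and 41.7% of the reads and stand in a line outside the gene counts. How reads from strands shared by copies were treated is not stated in those tables. Levels are counts scaled to the same assigned total in each library (CPM). The limit that a count of 0 allows, 3 counts, was 0.957 CPM for replicate 1 and 0.685 CPM for replicate 2. Intervals and floors cover counting error only, because amplified reads are not independent molecules. In total RNA of a tissue, fewer cells of a type and less RNA per cell cannot be told apart. Of the 14 neuronal marker genes 10 had at least 10 counts in each library, and their summed level was 31961 CPM for replicate 1 and 25554 CPM for replicate 2. Mir132 led that list with 21687 and 13106 CPM. Without it, a choice made after its values were seen, the other 13 genes summed to 10274 and 12447 CPM, and Mir137 among them had 4757 and 6655 CPM. Of the 9 detected among these 13, 6 were higher in replicate 2 and 3 in replicate 1. The copies of the classic neuronal miRNA Mir124a were at or under 1.83 CPM. Because the treatment of reads that match several copies is not stated, these values are not a level of the mature miRNA.

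All 4 members were detected, with at least 10 counts in each library, and they spanned a wide range of levels. Together they held 0.589% of the assigned counts in replicate 1 and 1.10% in replicate 2. The miR-128 genes carried most of this, with summed counts 24.9 times those of the miR-218 genes in replicate 1 and 38.1 times in replicate 2. These sums, and the ranks and percentiles below, are of reads assigned to gene copies. They need not follow the levels of mature miR-128 and miR-218, since the treatment of reads from the shared strands is not stated.

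Mir128-1 had 14253 counts in replicate 1 and 39700 in replicate 2, or 4545 and 9069 CPM, with exact Clopper-Pearson 95% intervals of 4471 to 4620.1 and 8980.3 to 9158 CPM. Its mean was 6807 ± 3199 CPM (SD, n = 2), rank 27 of the 2202 genes by mean level. Mir128-2 had 3501 and 7218 counts, or 1116 and 1649 CPM, with a mean of 1383 ± 376 CPM (SD, n = 2) and rank 79. Mir128-1 lay above Mir128-2 in both libraries, and both genes were higher in replicate 2.

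Mir218-1 had 104 and 198 counts in replicates 1 and 2, or 33.2 CPM (27.1 to 40.2) and 45.2 CPM (39.1 to 52.0). Its mean was 39.2 ± 8.53 CPM (SD, n = 2), rank 251, and it was the lowest of the members. Mir218-2 had 610 and 1034 counts, or 195 CPM (179 to 211) and 236 CPM (222 to 251), with a mean of 215 ± 29.5 CPM (SD, n = 2) and rank 159. Mir218-1 lay below Mir218-2 in both libraries, and the differences within both member pairs are set against other pairs of copies below.

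The order of the 4 genes by level, Mir128-1, Mir128-2, Mir218-2 and Mir218-1, was the same in both libraries. Each step exceeded the difference between libraries. Mir128-2 exceeded Mir218-2 by 5.74 times in replicate 1 and 6.98 times in replicate 2, and Mir128-1 exceeded Mir218-1 by 137 and 201 times. Among the 384 genes detected in both libraries, Mir128-1 stood at the 93.2 percentile of mean level and Mir128-2 at 79.7, against 58.9 for Mir218-2 and 34.9 for Mir218-1. Each read comes from 1 small RNA, though several can come from the same one by amplification, so counts were not divided by hairpin length. On the other strand every member had 0 counts in both libraries.

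**Figure D2:**
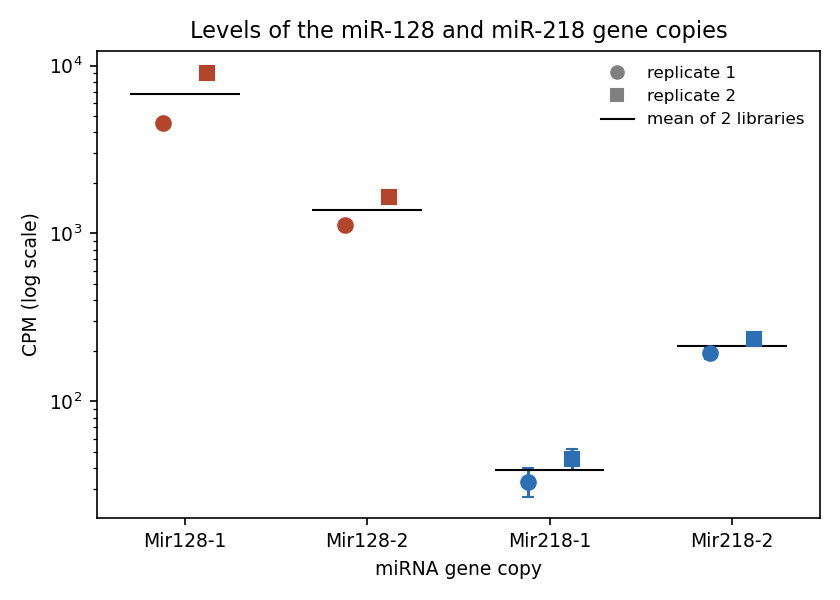
Levels of the 4 gene copies in CPM on a log axis. Circles are replicate 1, squares replicate 2, black lines the mean of the 2 libraries, and error bars exact 95% intervals for counting error, mostly smaller than the symbols. Mir128-1 lies above Mir128-2 and Mir218-1 below Mir218-2 in both libraries.

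Comparing the copies within a library shows to which host's locus the assigned reads of each pair were counted. The R3hdm1 copy of miR-128 and the Slit3 copy of miR-218 held most of them. Reads wholly within the stretch shared by the copies match both loci, so the shares below need not be those of the mature strand. How far the shares depend on the arms that differ, or on read ends outside the shared stretch, was not tested. Mir128-1 held 80.3% of the counts of its pair in replicate 1 (exact 95% interval 79.7% to 80.9%) and 84.6% in replicate 2 (84.3% to 84.9%), or 82.4% ± 3.07 (SD, n = 2). Mir218-1 held 14.6% of the counts of its pair in replicate 1 (12.1% to 17.4%) and 16.1% in replicate 2 (14.1% to 18.2%), or 15.3% ± 1.06 (SD, n = 2). The intervals of the 2 libraries did not overlap for miR-128 and overlapped for miR-218. They rest on unlike depth, with 17754 and 46918 counts for the miR-128 pair and 714 and 1232 for the miR-218 pair.

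The ratio of Mir128-1 to Mir128-2 was 4.07 in replicate 1 and 5.50 in replicate 2. The ratio of Mir218-1 to Mir218-2 was 0.170 and 0.191. Copies were tested with edgeR's quasi-likelihood test, with both copies of a family as columns of each library and the library as a block, over all 23 families with exactly 2 copies by symbol and at least 10 counts over both copies in each library. Mir128-1 exceeded Mir128-2 by 2.24 on the log2 scale (SE 0.19, 95% interval 1.56 to 2.93, edgeR adjusted p = 0.00726). Mir218-1 lay below Mir218-2, with a log2 ratio of -2.47 (SE 0.14, 95% interval -2.96 to -1.97, edgeR adjusted p = 0.0037). Both pairs thus passed at an adjusted p of 0.05, as did 69.6% of the families tested, 16 of 23. Copy 1 was the higher in 21.7% of the families by this test and copy 2 in 47.8%.

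The sizes of the copy differences were also common ones. Both member pairs lay at least 4-fold apart in both libraries, as did 47.8% of the families, 11 of 23. The median of the absolute log2 ratio over the 23 families was 2.24, which is the value of miR-128 itself, at rank 12. That of miR-218 was 2.47. The ratio differed between the libraries by 0.43 on the log2 scale for miR-128 and by 0.17 for miR-218. The median of that gap over the families was 0.39, with 9 families above the gap of miR-128 and 15 above that of miR-218.

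In order of the copy ratio, miR-218 lay between Mir135a and Mir129 below it and Mir103 and Mirlet7c above it. Mir129-1 had 268 and 385 counts in replicates 1 and 2, against 2816 and 5175 for Mir129-2, a log2 ratio of -3.57 (SE 0.17, edgeR adjusted p = 0.00277). Mir135a, with 13 and 2 counts for copy 1 against 122 and 46 for copy 2, had a log2 ratio of -3.66. Mir103, whose copies lie in introns of Pank3 and Pank2, had 28 and 6 counts for copy 1 against 88 and 55 for copy 2, and the difference did not pass (log2 ratio -2.32, edgeR adjusted p = 0.0504). Mirlet7c had a log2 ratio of -1.27.

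miR-128 lay between Mir125b and Mir16 below it and Mir92 and Mir181a above it. Mir16-1, in an intron of Dleu2, had 934 and 1424 counts, against 295 and 457 for Mir16-2, in an intron of Smc4, a log2 ratio of 1.65 (SE 0.11, edgeR adjusted p = 0.00511). For Mir125b the log2 ratio was 0.85 and did not pass (edgeR adjusted p = 0.0578). Mir92 and Mir181a had log2 ratios of 4.46 and 5.42.

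**Figure D3:**
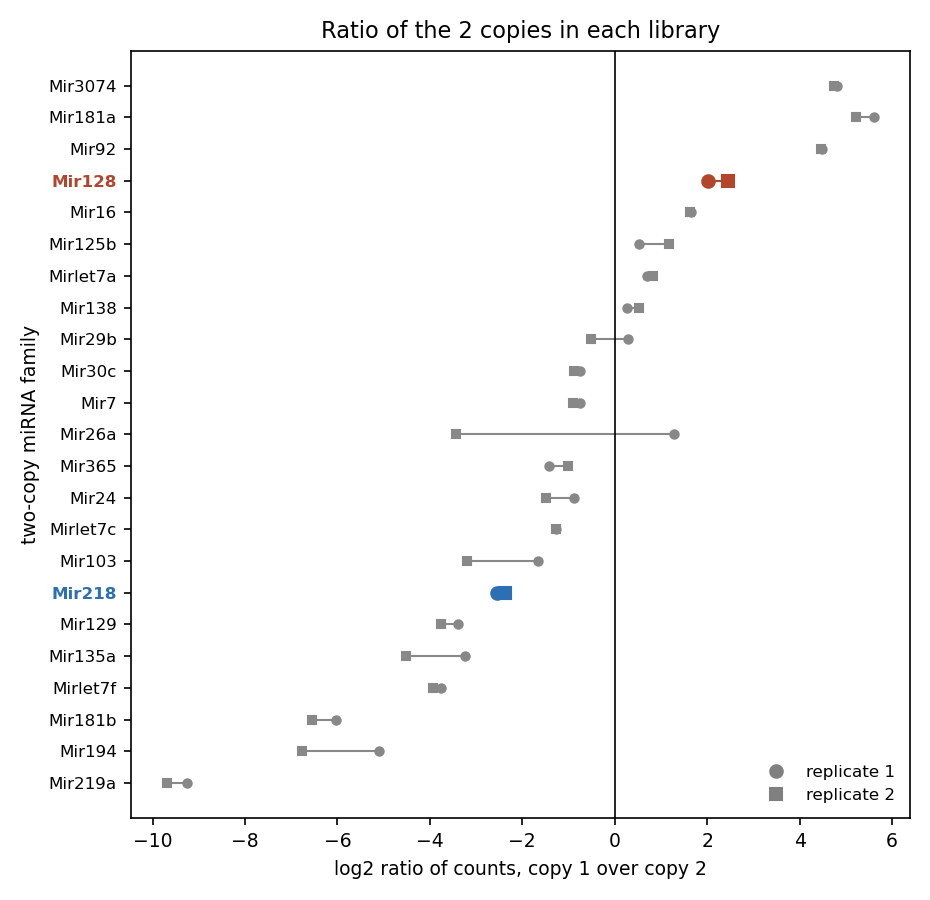
Log2 ratio of the counts of copy 1 over copy 2 in each two-copy family, ordered by the fitted ratio. Circles are replicate 1 and squares replicate 2, a copy with 0 counts was drawn as 1 count, and the miR-128 (2.03 and 2.46) and miR-218 (-2.55 and -2.38) pairs are in colour.

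Encoding in introns of 2 different hosts was shared by 7 of the 23 families: Mir128, Mir218, Mir135a, Mir103, Mir26a, Mir125b and Mir16. Of these 7, 4 passed the copy test and 3 were at least 4-fold apart in both libraries, miR-128 and miR-218 among both. Mir26a, in introns of Ctdspl and Ctdsp2, had the widest gap between libraries, 4.72 on the log2 scale. Mir26a-1 had 592 and 23 counts in replicates 1 and 2, against 244 and 249 for Mir26a-2. RefSeq held both hairpins for 22 of the 23 families, and in 21 of these exactly 1 mature strand was identical in the copies, as in both member pairs. The longest shared runs in the 22 families were 22 to 30 bases with a median of 24, against 23 for miR-128 and 22 for miR-218.

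All 4 members were higher in replicate 2 after scaling to the assigned counts. The log2 ratio of replicate 1 over replicate 2 was -1.0 for Mir128-1, -0.56 for Mir128-2, -0.44 for Mir218-1 and -0.28 for Mir218-2. In an exact two-sided binomial test of each gene's counts, whose null holds counting error and nothing else, and which compares 2 libraries rather than conditions, all 4 passed, with an adjusted p of 0.0211 or less. So did 53.3% of the 501 genes tested, and 30.1% passed with the higher level in replicate 2. Among the 252 genes with at least 100 counts in each library, the median absolute log2 ratio was 0.32. At least as wide a ratio was found in 9.13% of them for Mir128-1, 23.8% for Mir128-2, 36.1% for Mir218-1 and 55.6% for Mir218-2.

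Other markers moved between the same libraries. The 5 listed genes of the Hox clusters, which mark hindbrain and spinal cord, summed to 141 CPM in replicate 1 and to 505 CPM in replicate 2, and 2 of the 5 were detected. These were Mir10a with 107 and 399 CPM and Mir10b with 31.3 and 103 CPM. Mir126a of endothelium had 12521 and 22475 CPM. The 4 choroid plexus markers went the other way, with summed levels of 2993 and 1094 CPM. The 3 oligodendrocyte markers summed to 6799 and 6685 CPM, the 5 of microglia and blood to 1307 and 1302 CPM, and the 2 of smooth muscle and pericytes to 8170.4 and 6864 CPM. Near-equal sums did not mean steady genes. In the oligodendrocyte list Mir219a-2 had 3298 and 3783 CPM and Mir338 had 3496 and 2897 CPM. In that of microglia and blood, Mir155 had 208 and 235 CPM and Mir451a had 43.4 and 31.8 CPM. No listed marker was at 0 in both libraries, and the part of these cell types in the levels of the members was not tested.

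**Figure D4:**
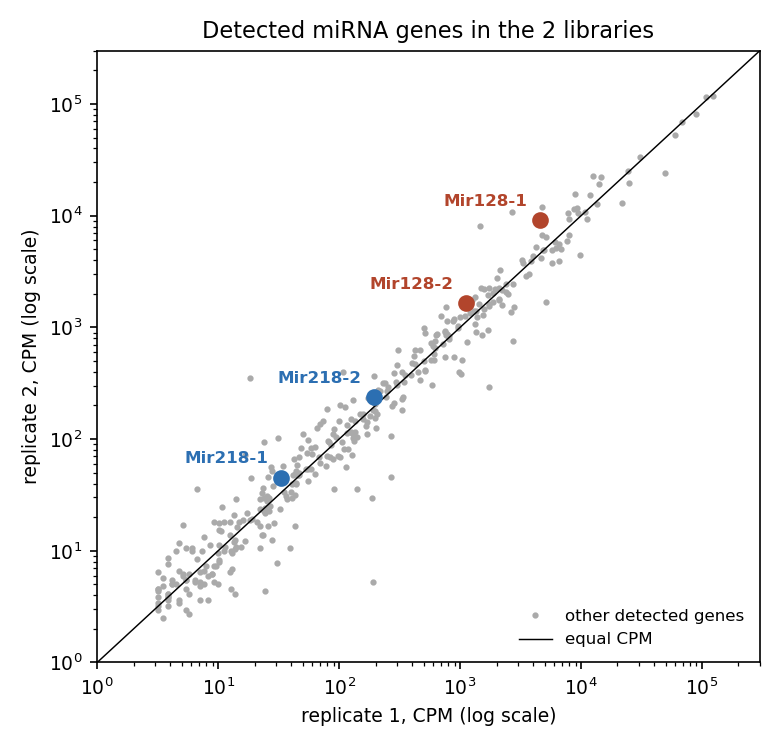
CPM of the 384 genes detected in both libraries, replicate 1 on the x axis and replicate 2 on the y axis, both on log scales. The line marks equal CPM, and the 4 members, in colour, lie above it.

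The genes of most similar level to each member, by distance in log2 CPM over the 2 libraries among 251 other genes with at least 100 counts in each, were named by rule. Mir22 (4795 and 12042 CPM, distance 0.42) and Mir137 (4757 and 6655 CPM, distance 0.45) lay nearest to Mir128-1. Nearest to Mir128-2 were Mir423 (distance 0.18), in an intron of Nsrp1, and Mir708 (0.31), in an intron of Tenm4. Mir3093 (0.05) and Mir345 (0.33) lay nearest to Mir218-1, and Mir384 (0.08) and Mir155 (0.10) to Mir218-2. With 2 libraries, such likeness describes level only.

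The miR-27 genes carry a seed that overlaps that of miR-128 with an offset of 1 base, shown by the mature strands with seeds in capitals.

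miR-128-3p: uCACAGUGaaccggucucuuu
miR-27a-3p: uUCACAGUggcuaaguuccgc
miR-27b-3p: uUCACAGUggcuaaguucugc

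Mir128-1 and Mir128-2 averaged 6807 ± 3199 and 1383 ± 376 CPM, against 1991 ± 349.6 CPM for Mir27b and 162 ± 7.20 CPM for Mir27a (SD, n = 2 each). Mir27b had 1744 CPM in replicate 1 and 2238 CPM in replicate 2, so it lay above Mir128-2 and below Mir128-1 in both libraries. Mir27a had 157 and 167 CPM, below both miR-128 genes. The part of reads from strands shared by copies in these differences was not tested.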

How the data were processed

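The authors deposited raw counts, a table for each library, with 3 count columns over 2202 miRNA genes below 4 summary lines. The deposited notes name mm10 and annotation M21. Sources used here do not state the aligner, the counter or the handling of adapters. An unstranded, a sense and an antisense column were told from the summary lines' names and the column totals, with no header to state it. The sense column was used, with 93.4% of the stranded counts in replicate 1 and 91.9% in replicate 2. No summary line entered a total. Unmapped reads were 26.5% and 18.1% of reads, reads outside miRNA genes 5.72% and 5.91%, and ambiguous reads 0. All 2202 identifiers matched M21.

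The members and lists were chosen with earlier results of these data known. CPM, shares and exact intervals were computed in Python 3.11.15 with scipy 1.17.1. Copies were compared with edgeR 4.0.16 in R 4.3.3 (glmQLFit and glmQLFTest, Benjamini-Hochberg adjustment over 23 of 43 two-copy families), with the spread shared over families because each had 1 residual degree of freedom. Libraries were compared by exact binomial tests over genes with at least 10 counts in both together, with 0.5 counts added for the log2 ratios. Both were also run on simulated data, with counting error only for the binomial test and a spread set in advance for the copy fit. Those runs do not show how the tests behave at the spread between these libraries. Named genes were the members, miR-27 genes, markers, nearest genes and neighbouring families. Alternatives were DESeq2 1.42.0, limma 3.58.1, other scalings, count minimums, strand handling and each replicate left out.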

Additional observations from a re-analysis of the deposited data

How the results depend on the processing

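Taking all reads of the library as the denominator lowered the mean levels to 2271 CPM for Mir128-1, 459 for Mir128-2, 13 for Mir218-1 and 71.1 for Mir218-2, because that total includes reads not assigned to miRNA genes. The other 80 values under alternative settings kept their direction and their side of the threshold, or stayed within the spread or 1.5-fold limit. Several of them could not have come out otherwise. With 2 libraries, a level or share with a replicate left out always stays within the SD around the mean. The log2 ratios of the copies with a replicate left out were fixed in the same way, since the fitted ratios lay at the means of the 2 libraries. Shares without regard to strand were fixed because the members had no counts on the other strand. For miR-218, ratios per window and per hairpin base were fixed because the copies are equal in both. The copy difference of miR-128 had an adjusted p of 8.28e-43 to 0.0103 over DESeq2, limma, 2 other count minimums, counts without regard to strand, a fit with no replicate block and a fit without Mir26a, which was added after seeing the data. That of miR-218 ranged from 2.94e-05 to 0.00604. Without the block the log2 ratios were 2.30 and -2.46, and 13 families passed, against 16 with it (of 23 each). With the block, 14 passed by DESeq2 and 19 by limma, also of 23. Over other sets of families, 18 of 27 passed with no filter beyond 1 count, 14 of 19 with at least 50 counts, 14 of 20 without regard to strand and 19 of 22 without Mir26a. Leaving out a replicate gave log2 ratios of 2.03 to 2.46 for miR-128 and -2.55 to -2.38 for miR-218, with no test, since no residual degrees of freedom remained. For the same reason the count of families passing was not run with a replicate left out. Per window that the other copy lacks, also added after seeing the data, the log2 ratios were 2.42 and -2.47. The difference of Mir218-1 between the libraries came nearest to the threshold, with an adjusted p of 0.0499 under DESeq2 size factors (exact binomial test, range 0.0136 to 0.0499). The exact 95% intervals of the Mir218-1 share, 12.1% to 17.4% and 14.1% to 18.2%, overlapped. Overlap is not a test of a difference, and none was run on the shares between the libraries.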
